A study of Mus musculus with 2 samples.

Results

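The growth factor genes described here are those of 10 secreted proteins that act on blood vessels, the cells around them and connective tissue: the vascular endothelial growth factor family members Vegfb, Vegfc and Pgf, the angiopoietins Angpt1 and Angpt2, the platelet-derived growth factors Pdgfa, Pdgfb, Pdgfc and Pdgfd, and the hepatocyte growth factor Hgf. They were taken by symbol, through the RefSeq transcript that each probe of the array is designed on, and are 10 of the 20880 genes that could be named on the array in this way. Together they are read by 12 of 39425 probes. The readout is gene expression on single-colour Agilent arrays, 2 in all, with 1 for each cell population. The first holds differentiated small proliferative adipocytes (SPAD) and the second differentiated stromal vascular cells (SVCD), which serve as the comparison. Both came from the epididymal fat of male mice given as C57/BL. The age of the mice, the number of animals and the number of cultures behind each RNA are not given in the sources used here, and no allele or transgene is named. After collagenase digestion and a brief first spin at 9 × g, the floating cells were spun again at 226 × g for 3 min, and the pellet of this second spin gave the small proliferative adipocytes. What lay beneath the floating layer in the first spin gave the stromal vascular cells. Both populations were grown to 90% confluency, kept for 3 days in a medium that induces fat cell differentiation (insulin, dexamethasone and IBMX), and then for 2 days in plain medium. They are therefore cells expanded and induced in culture, not cells taken directly from fat.

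As background, fat is a tissue that grows together with its capillaries, and fat cells and their precursors secrete factors that recruit and remodel vessels. Ligands of the VEGF family bind tyrosine kinase receptors encoded by Flt1, Kdr and Flt4 with neuropilins as co-receptors, angiopoietins bind the receptor encoded by Tek, platelet-derived growth factors (PDGFs) bind the receptors encoded by Pdgfra and Pdgfrb on mesenchymal cells, and hepatocyte growth factor binds the receptor encoded by Met. PDGF signalling drives the proliferation of fibroblasts and adipose precursors and the recruitment of pericytes to vessels.

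Each value below is the background-subtracted processed intensity of a probe. The error after a signal is the one that the image analysis software estimated for it. For a probe printed several times, the errors of its spots were pooled and divided by the root of the number of spots. Errors of such probes, as of Pdgfra and Met, are smaller for that reason and do not compare with those of probes printed once. Differences are given on the log2 scale as SPAD minus SVCD, after each array was divided by its own 75th percentile of probe signals (622 for SPAD, 678 for SVCD), and the error after a difference combines the errors of both signals. With 1 array per group there was no replicate, no test was possible, and none of the errors covers differences between cultures or RNA preparations. Between the repeat spots of probes printed 10 or more times, the SD of a log2 difference was 0.35 for the dimmest 94 of these probes, 0.09 for the middle 93 and 0.08 for the brightest 94. Levels of different probes are not compared with each other, since probes differ in how brightly they bind. The local background had a median of 28 on both arrays, and no non-control spot was saturated. When the arrays were scaled to their spike-in control RNAs instead, every difference moved by -0.84, and the median over all genes with it. A difference is therefore read below against that of all genes. In RNA from a whole culture, fewer cells of a type and less RNA per cell cannot be told apart.

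Angiogenic ligands stood at both ends of the comparison. Pgf and Angpt2 were more than 10-fold higher in SPAD, whereas Hgf, Vegfc, Pdgfc, Pdgfa and the brighter Pdgfb probe were at least 2-fold lower. Vegfb and Pdgfd differed by less than 2-fold, and Angpt1 was not well above background in SPAD or SVCD. Of the 9 genes measured on both arrays, 2 (22.2%) were thus at least 2-fold higher, against 14.4% of all 14074 named genes well above background on both arrays. At least 2-fold lower were 5 of the 9 (55.6%), against 13.3% of all genes. This count takes Pdgfb by its brighter probe, and with the mean over the probes of a gene 4 of the 9 were lower. The median difference of the 9 was -1.20, against 0.07 for all genes. It was -0.63 with the mean over probes, against 0.08 for all genes, and -0.68 without a filter on dim probes, against 0.25 for all genes. With spike-in scaling the counts were again 2 higher and 5 lower and the median was -2.04, but there 5.19% of all genes were higher and 38.1% lower, with a median of -0.77. The plot of signals by array shows the 12 probes side by side.

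**Figure D1:**
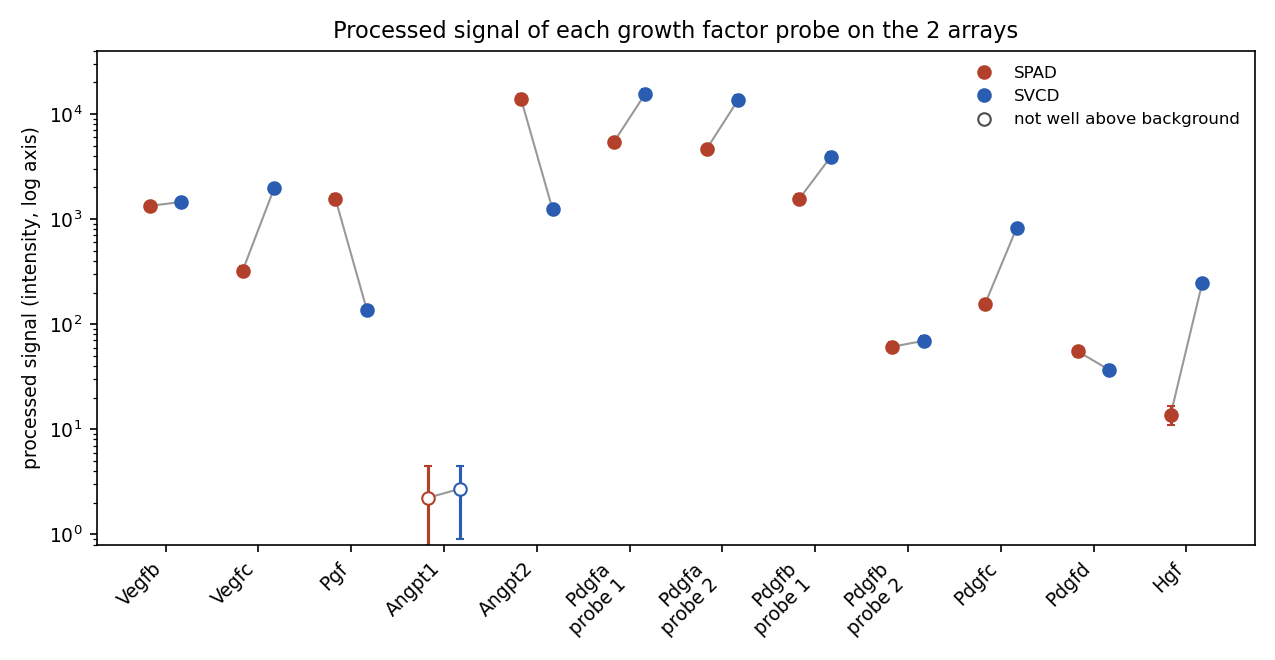
Processed signal (intensity, log axis) of each of the 12 growth factor probes on the SPAD array (red, left of each pair) and the SVCD array (blue, right), joined by a line, with error bars for the software's error of the signal. Open circles are not well above background. Pgf and Angpt2 slope down towards SVCD, and Vegfc, Pdgfa, Pdgfc and Hgf slope up, while the 2 probes of Pdgfb run differently.

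Among the VEGF family, Pgf and Vegfc differed in opposite directions. Pgf encodes placental growth factor, a ligand of the receptor encoded by Flt1. Its probe (transcript NM_008827) had a signal of 1564 ± 156 in SPAD, against 136 ± 13.7 in SVCD. The log2 difference was 3.65 ± 0.20, or 12.6-fold higher in SPAD, and 99.2% of all genes had a lower difference. Vegfc (NM_009506), the ligand that drives the growth of lymphatic vessels, showed the opposite, at 323 ± 32.4 in SPAD and 1968 ± 197 in SVCD. It was 5.58-fold lower in SPAD (-2.48 ± 0.20), and 3.15% of all genes lay lower. Vegfb (NM_011697), a ligand of the receptor encoded by Flt1 that is abundant in tissues rich in mitochondria, had 1337 ± 134 in SPAD and 1456 ± 146 in SVCD. Its scaled difference was 0.0023 ± 0.20, within the spot error, and became -0.84 with spike-in scaling, the shift of that scaling itself. The promoter windows of these 3 genes are shown because Pgf and Vegfc differed in opposite directions while Vegfb differed by less than its error. They are RefSeq sequences of build GRCm38.p6, from 250 bases before to 50 after the annotated start, read 5′ to 3′ on the gene's strand. The array's own annotation names an older build, and no probe positions are given here. Capitals mark the core of the hypoxia response element (ACGTG or GCGTG) and the GC box (GGGCGG), on either strand. Where RefSeq has several starts, the most upstream window is printed. Pgf lies at chr12:85177264-85177563 (minus strand), Vegfc at chr8:54077282-54077581 (plus strand) and Vegfb at chr19:6987602-6987901 (minus strand).
Pgf: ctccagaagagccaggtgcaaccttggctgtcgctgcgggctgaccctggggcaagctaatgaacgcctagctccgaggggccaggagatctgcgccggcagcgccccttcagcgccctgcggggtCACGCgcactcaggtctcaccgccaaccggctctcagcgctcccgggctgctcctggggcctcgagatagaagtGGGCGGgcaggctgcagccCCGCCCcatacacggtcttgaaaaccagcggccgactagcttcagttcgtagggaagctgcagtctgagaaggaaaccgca
Vegfc: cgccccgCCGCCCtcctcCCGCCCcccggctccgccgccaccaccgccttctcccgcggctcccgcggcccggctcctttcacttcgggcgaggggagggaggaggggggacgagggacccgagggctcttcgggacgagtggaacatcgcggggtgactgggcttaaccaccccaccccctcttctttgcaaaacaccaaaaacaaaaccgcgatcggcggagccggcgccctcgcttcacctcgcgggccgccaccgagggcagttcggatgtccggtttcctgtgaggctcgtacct
Vegfb: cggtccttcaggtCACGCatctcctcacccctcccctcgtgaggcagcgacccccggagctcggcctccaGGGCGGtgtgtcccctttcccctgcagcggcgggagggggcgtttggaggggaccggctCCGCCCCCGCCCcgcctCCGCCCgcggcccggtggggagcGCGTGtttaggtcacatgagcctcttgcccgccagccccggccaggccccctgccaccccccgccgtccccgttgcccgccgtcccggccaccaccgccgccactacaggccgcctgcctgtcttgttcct

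The Pgf window held 1 hypoxia core and 2 GC boxes, the Vegfc window no hypoxia core and 2 GC boxes, and the Vegfb window 2 hypoxia cores and 4 GC boxes. The other Pgf window held neither.

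Of the angiopoietins, only Angpt2 was measured. It encodes the angiopoietin that is made mainly by endothelial cells and that loosens vessels in the presence of other angiogenic factors. Angpt2 (NM_007426) had a signal of 13944 ± 1394 in SPAD, against 1238 ± 124 in SVCD. The difference was 3.62 ± 0.20, or 12.3-fold higher in SPAD, and 99.1% of all genes had a lower difference. Angpt1 (NM_009640), the vessel-stabilising ligand made by mesenchymal cells, had 2.23 ± 2.23 in SPAD and 2.71 ± 1.81 in SVCD. Neither signal was well above background, so no fold change is given. Alternative settings kept Angpt2 between 2.78 and 3.62 and Pgf between 2.81 and 3.65, the lowest with spike-in scaling.

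Pdgfa, Pdgfc and the brighter of the Pdgfb probes were lower in SPAD, and Pdgfd was not. Pdgfa encodes the A chain, which signals through the receptor encoded by Pdgfra. Its brighter probe (NM_008808) had 5408 ± 541 in SPAD and 15648 ± 1565 in SVCD, a difference of -1.41 ± 0.20 or 2.65-fold lower. The other Pdgfa probe had 4647 ± 465 in SPAD and 13652 ± 1365 in SVCD and gave -1.43 ± 0.20, so both probes of the gene read the same change. Pdgfc (NM_019971), whose product needs proteolytic cleavage before it can bind a receptor, had 156 ± 15.7 in SPAD and 819 ± 81.9 in SVCD. It was 4.83-fold lower in SPAD (-2.27 ± 0.21), a larger difference than that of Pdgfa by more than both errors. Pdgfb encodes the B chain, which endothelial cells use to attract pericytes. Its brighter probe (NM_011057) had 1567 ± 157 in SPAD and 3934 ± 393 in SVCD and was 2.30-fold lower (-1.20 ± 0.20). The dimmer Pdgfb probe, on the same transcript, had 61.0 ± 6.53 in SPAD and 69.5 ± 7.20 in SVCD, a difference of -0.06 ± 0.22. The 2 probes thus disagreed by more than their errors, and their mean of -0.63 did not reach 2-fold. Pdgfd (NM_027924), which signals through the receptor encoded by Pdgfrb and like Pdgfc is released by proteases, was dim, at 55.1 ± 6.05 in SPAD and 36.7 ± 4.17 in SVCD. Its difference was 0.71 ± 0.23, below 2-fold, and turned to -0.13 with spike-in scaling. Promoter windows of Pdgfa and Pdgfc are shown as those of the PDGF genes that were lower in SPAD on every probe, with capitals as above. The Pdgfa window lies at chr5:138994895-138995194 (minus strand) and the Pdgfc window at chr3:81036166-81036465 (plus strand).
Pdgfa: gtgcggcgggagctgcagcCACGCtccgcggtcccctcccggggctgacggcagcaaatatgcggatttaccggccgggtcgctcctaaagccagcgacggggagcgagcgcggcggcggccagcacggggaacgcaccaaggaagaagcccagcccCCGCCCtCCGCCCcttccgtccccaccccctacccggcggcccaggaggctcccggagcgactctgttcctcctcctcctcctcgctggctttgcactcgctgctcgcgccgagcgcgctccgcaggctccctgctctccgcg
Pdgfc: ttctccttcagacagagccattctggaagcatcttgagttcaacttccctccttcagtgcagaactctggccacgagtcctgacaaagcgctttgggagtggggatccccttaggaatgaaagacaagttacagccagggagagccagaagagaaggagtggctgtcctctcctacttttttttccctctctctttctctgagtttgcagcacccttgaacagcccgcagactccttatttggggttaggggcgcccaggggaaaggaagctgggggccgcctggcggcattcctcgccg

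The Pdgfa window held 1 hypoxia core and 2 GC boxes and had a GC content of 73.3%. The other Pdgfa window, further downstream, held no hypoxia core and 1 GC box. The Pdgfc window held neither motif, and its GC content was 55.0%.

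With 75th percentile scaling Hgf had the largest difference of the growth factor genes. Its product, hepatocyte growth factor, is secreted by mesenchymal cells and makes epithelial and endothelial cells move and divide. The Hgf probe (NM_010427) had a signal of 13.7 ± 2.84 in SPAD, against 244 ± 24.5 in SVCD. It was 16.3-fold lower in SPAD (-4.03 ± 0.33), and 0.72% of all genes lay lower. The SPAD signal was still well above background but close to it, and the size depended on the background correction. With normexp, which here added an offset of 50 to every signal and so shrinks differences of dim signals most, the difference was -1.98. This was smaller in size than those of Pgf and Angpt2. The upstream Hgf window, shown for the gene with the largest difference, lies at chr5:16553245-16553544 (plus strand), with capitals as above.
Hgf: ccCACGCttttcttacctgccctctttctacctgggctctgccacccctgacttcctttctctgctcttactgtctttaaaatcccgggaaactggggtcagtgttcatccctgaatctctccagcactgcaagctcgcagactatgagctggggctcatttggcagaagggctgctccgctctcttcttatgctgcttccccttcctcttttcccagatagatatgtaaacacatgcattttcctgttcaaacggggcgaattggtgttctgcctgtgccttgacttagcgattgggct

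This window held 1 hypoxia core and no GC box. The second Hgf window, further downstream, held neither motif.

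Over all 10 promoter windows of the 7 growth factor genes that the RefSeq table lists, 4 held the hypoxia core and 5 the GC box, against 43.8% and 35.7% of all 32851 windows of the same length. The Egr1 site GCGNGGGCG, searched on both strands, can share bases with a GC box or with a hypoxia core and was found in 2 of the 10 windows, those of Vegfc and Vegfb, and in 5.55% of all windows. A match here describes the letters only, and no binding was measured.

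**Figure D2:**
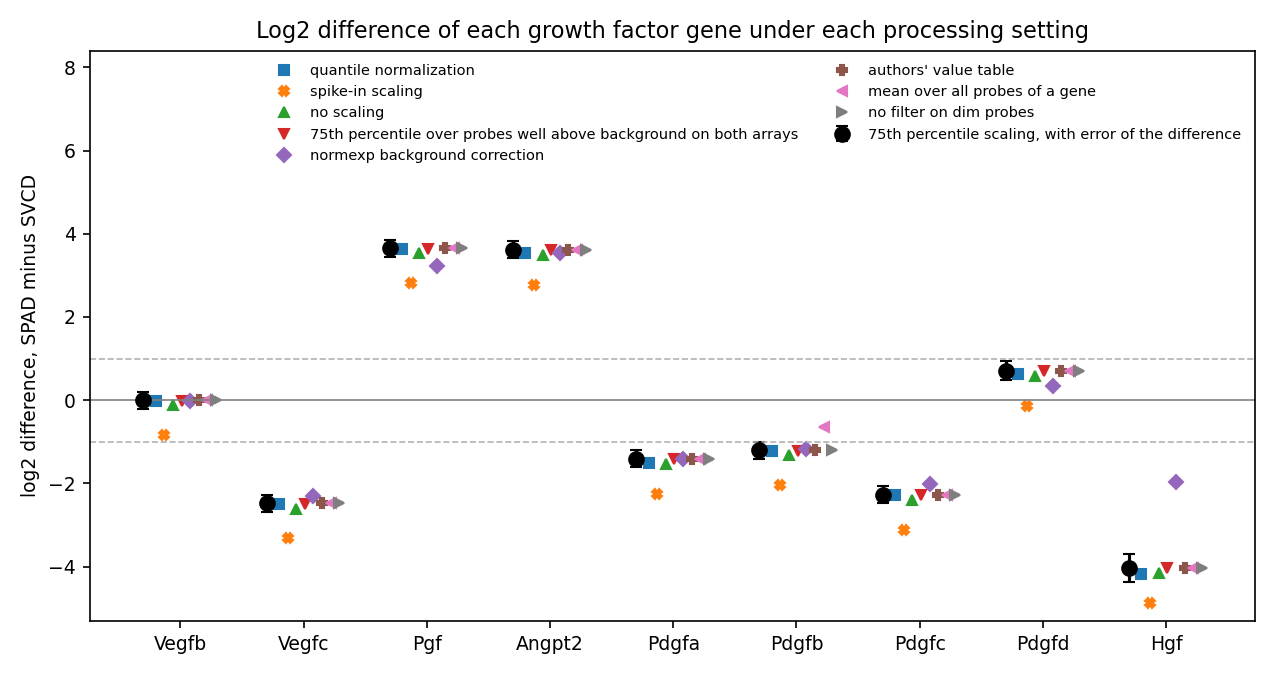
Log2 difference (SPAD minus SVCD) of the 9 growth factor genes well above background on both arrays, under 75th percentile scaling (black, with the error of the difference) and under 8 alternative settings (coloured symbols). Dashed lines mark 2-fold. Spike-in scaling moves each gene by -0.84, Hgf is at -1.98 with normexp, and Pdgfb is at -0.63 with the mean of its probes.

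The receptors of these ligands did not follow a single direction. Of 11 receptor and co-receptor genes, 10 were well above background on both arrays. Of these, 3 were higher in SPAD by 2-fold or more and 3 lower, or 30% each, against 14.4% and 13.3% of all genes. The median was 0.34, or -0.50 with spike-in scaling. Flt1, the receptor gene for placental growth factor and VEGF-B, had a signal of 1638 ± 164 in SPAD and 582 ± 58.2 in SVCD. It was 3.07-fold higher in SPAD (1.62 ± 0.20), or 0.78 with spike-in scaling, so that Pgf and its receptor gene were both higher in SPAD. Kdr, the main signalling receptor gene of endothelial cells, had 2090 ± 209 in SPAD and 3202 ± 320 in SVCD on its brighter probe (-0.49 ± 0.20), while its other probe gave -1.94. Flt4, the receptor gene for VEGF-C on lymphatic endothelium, was well above background in SPAD only, at 15.6 ± 2.83 against 4.43 ± 1.93 in SVCD. It was at least 1.98-fold higher in SPAD, a bound set by the lowest signal that counts as well above background on the SVCD array.

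The neuropilin co-receptor genes were lower in SPAD, as was Vegfc. Nrp1 had 155 ± 15.8 in SPAD and 634 ± 63.4 in SVCD, and was 3.74-fold lower (-1.90 ± 0.21). Nrp2, the neuropilin that binds VEGF-C, had 4029 ± 403 in SPAD and 16029 ± 1603 in SVCD on its brighter probe. It was 3.65-fold lower (-1.87 ± 0.20), and its other probe gave -2.10. Both angiopoietin receptor genes were higher in SPAD, as was Angpt2. Tek, which encodes the angiopoietin receptor, was dim, at 38.2 ± 4.60 in SPAD and 10.3 ± 2.29 in SVCD. It was 4.04-fold higher (2.01 ± 0.37), but 0.54 with normexp. Tie1, which encodes its co-receptor, had 472 ± 47.3 in SPAD and 78.1 ± 8.13 in SVCD and was 6.59-fold higher (2.72 ± 0.21).

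Neither PDGF receptor gene differed by 2-fold. Pdgfra, the receptor gene of fibroblasts and adipose precursors, had 371 ± 13.2 in SPAD and 265 ± 8.41 in SVCD, a difference of 0.61 ± 0.07. Pdgfrb, the receptor gene of pericytes and other mural cells, had 656 ± 65.6 in SPAD and 487 ± 48.7 in SVCD, a difference of 0.56 ± 0.20. Both were positive while Pdgfa, Pdgfc and the brighter Pdgfb probe were negative, and both turned negative with spike-in scaling, at -0.23 and -0.28. Pdgfrl, which encodes a secreted protein related to the PDGF receptors, had 30.4 ± 4.30 in SPAD and 141 ± 14.3 in SVCD and was 4.25-fold lower (-2.09 ± 0.25), or -0.95 with normexp. Met, the receptor gene for hepatocyte growth factor, had 105 ± 3.42 in SPAD and 106 ± 3.59 in SVCD. Its difference was 0.12 ± 0.07, so the 16.3-fold lower signal of Hgf stood beside a Met signal that differed by less than 2-fold in every setting.

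Several of these ligands are made as precursors, and the genes of enzymes that process them were listed with their inhibitors. Of 13 listed proteases, cofactors and protease inhibitors, 12 were measured on both arrays, with 2 higher in SPAD by 2-fold or more and 3 lower (median -0.23). These are 16.7% and 25% of the 12, against 14.4% and 13.3% of all genes. With spike-in scaling the counts were 1 and 6, where 5.19% of all genes were higher and 38.1% lower. Plau, the urokinase gene, whose product can cleave PDGF-D and the hepatocyte growth factor precursor, had 128 ± 13.1 in SPAD and 3229 ± 323 in SVCD and was 23.0-fold lower (-4.53 ± 0.21). Plat, the gene of the tissue plasminogen activator that cleaves PDGF-C, had 291 ± 29.3 in SPAD and 124 ± 12.7 in SVCD, or 2.55-fold higher (1.35 ± 0.21). Pcsk5, a proprotein convertase gene, had 196 ± 19.8 in SPAD and 20.6 ± 2.95 in SVCD and was 10.4-fold higher (3.38 ± 0.25). Spint1, an inhibitor of the proteases that activate hepatocyte growth factor, was 4.27-fold lower (-2.10 ± 0.21), with its other probe at -1.44.

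Other secreted angiogenic factors were mostly higher in SPAD. Of 13 listed genes 10 were measured on both arrays, of which 6 were higher in SPAD by 2-fold or more and 0 lower (median 1.55), or 5 and 3 with spike-in scaling. These 6 and 0 are 60% and 0% of the 10, against 14.4% and 13.3% of all genes. With spike-in scaling, 5.19% of all genes were higher and 38.1% lower. Adm, the gene of the vasodilator peptide adrenomedullin, had 11525 ± 1153 in SPAD and 836 ± 83.7 in SVCD and was 15.0-fold higher (3.91 ± 0.20). Apln, the gene of the endothelial peptide ligand apelin, had 2719 ± 272 in SPAD and 247 ± 24.9 in SVCD and was 12.0-fold higher (3.58 ± 0.20). Angptl2, an angiopoietin-like gene, had 908 ± 90.8 in SPAD and 78.4 ± 8.16 in SVCD and was 12.6-fold higher (3.66 ± 0.21). Egfl7, a factor secreted by endothelial cells, was 6.67-fold higher (2.74 ± 0.20). The following were named after their values were seen. Negative differences were those of Mdk (-0.88 ± 0.20, other probe -0.35), Cxcl12 (-0.33 ± 0.20, other probe -1.27) and Angptl4 (-0.28 ± 0.20). Ptn, well above background in SVCD only, was at least 2.17-fold lower. Angpt4 and Mst1 were so in SPAD only. Angpt4 was 6.37-fold higher by its own values (2.67 ± 0.36), which lay above the lowest signal used for a bound. The bound of Mst1 was 1.61-fold higher, or 0.69 in log2, smaller in size than the spike-in shift of -0.84.

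Secreted inhibitors of angiogenesis also included genes at both ends. Of 12 listed, 10 were measured on both arrays, with 5 higher in SPAD by 2-fold or more and 1 lower (median 1.02), or 2 and 2 with spike-in scaling. The 5 and 1 are 50% and 10% of the 10, against 14.4% and 13.3% of all genes. With spike-in scaling, 5.19% of all genes were higher and 38.1% lower. Thbs2, a thrombospondin gene, had 11635 ± 1164 in SPAD and 1187 ± 119 in SVCD, a difference of 3.42 ± 0.20. Serpinf1, the gene of pigment epithelium-derived factor, was 6.54-fold higher (2.71 ± 0.20), with its other probe at 2.95. Timp3, a metalloprotease inhibitor that also blocks the receptor encoded by Kdr, had 147 ± 14.9 in SPAD and 4268 ± 427 in SVCD and was 26.5-fold lower (-4.73 ± 0.21). Sema3a encodes a protein that competes with VEGF for the neuropilin encoded by Nrp1. Its brighter probe was well above background in SVCD only, at 8.25 ± 2.72 in SPAD and 215 ± 21.6 in SVCD. On that probe Sema3a was at least 18.3-fold lower in SPAD, while the other probe gave a smaller difference of -3.63.

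Of 13 transcription factor genes with a known role at promoters of such ligands, all were measured on both arrays, with 3 higher in SPAD by 2-fold or more and 0 lower (median 0.52), or 1 and 3 with spike-in scaling. The 3 and 0 are 23.1% and 0% of the 13, against 14.4% and 13.3% of all genes. With spike-in scaling, 5.19% of all genes were higher and 38.1% lower. Egr1, an immediate early factor known to act on the PDGF chain genes, had 4385 ± 439 in SPAD and 1196 ± 120 in SVCD, a difference of 2.00 ± 0.20. Epas1, the hypoxia-inducible factor abundant in endothelium and fat, had 13468 ± 1347 in SPAD and 4559 ± 456 in SVCD on its brightest probe and was 3.22-fold higher (1.69 ± 0.20), while its other probes ranged from -0.05 to 2.93. Foxo1, which acts on Angpt2 in endothelial cells, was 2.49-fold higher (1.31 ± 0.20), with its other probe at 1.26. Ets1, an endothelial factor, differed by 0.83 ± 0.20, with its other probe at 1.57.

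**Figure D3:**
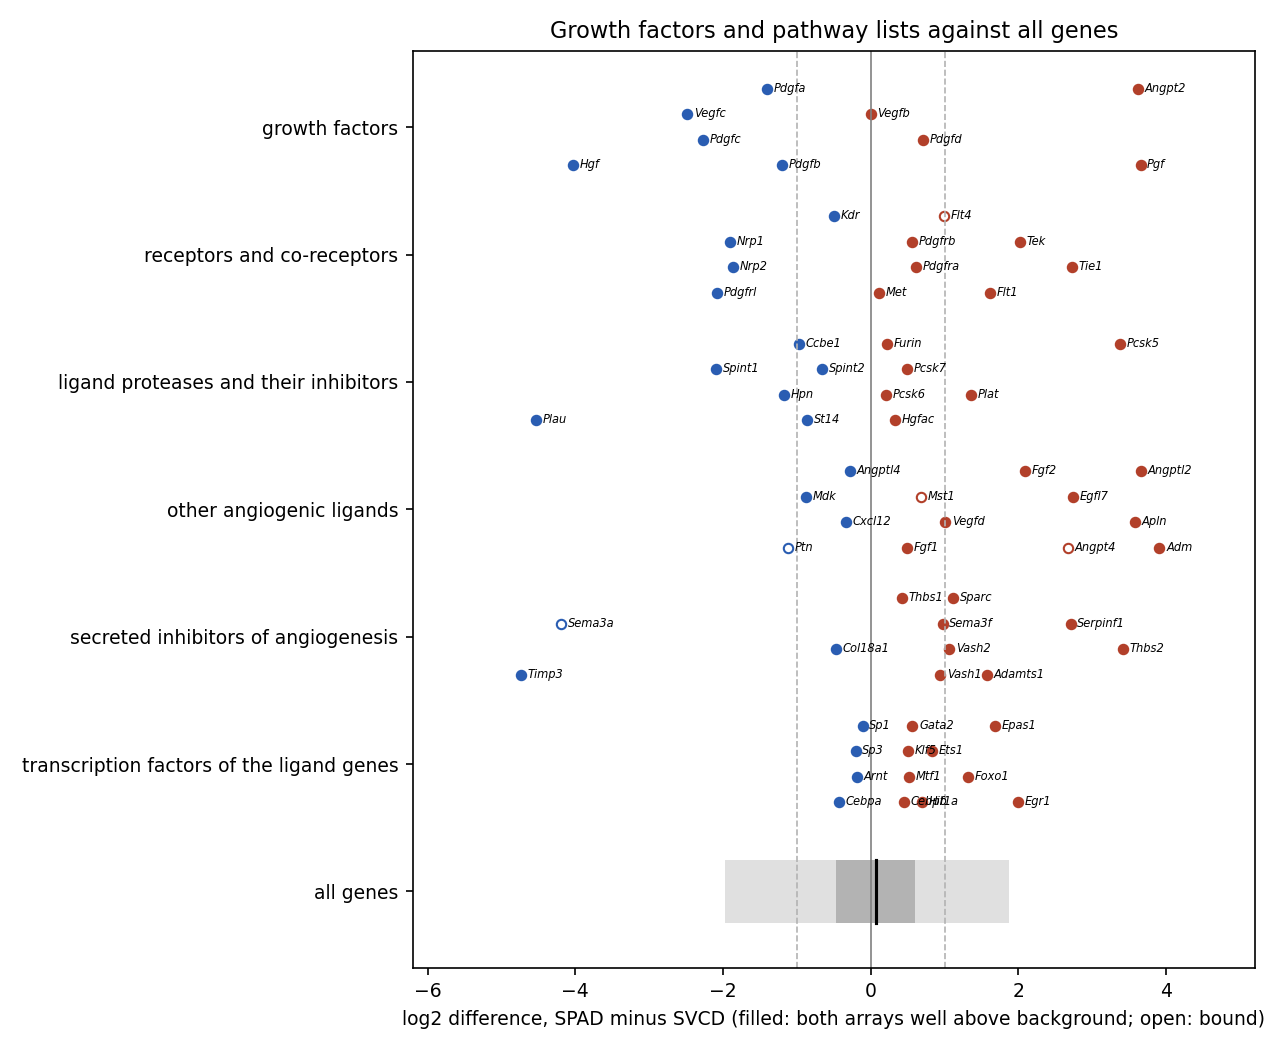
Log2 difference (SPAD minus SVCD) of the 9 measured growth factor genes and of 5 lists of their receptors, proteases, related ligands, inhibitors and transcription factors. Filled circles are genes well above background on both arrays, open circles are bounds for genes well above background on 1 array, red is above 0 and blue below, and dashed lines mark 2-fold. The bar for all 14074 genes spans the 5th to 95th percentile (-1.98 to 1.88, light) and the 25th to 75th (dark); Pgf, Angpt2, Vegfc, Pdgfc and Hgf lie outside the light bar.

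Markers of the cell types that could make or sense these factors differed as well. The counts of each marker list stand against 14.4% of all genes higher by 2-fold or more and 13.3% lower. With spike-in scaling these shares of all genes were 5.19% and 38.1%. The endothelial list, whose cells are a known source of Angpt2, Pdgfb and Pgf, had 12 of 16 genes higher in SPAD by 2-fold or more and 1 lower (median 2.73, or 11 and 3 with spike-in scaling), with a summed signal of 42314 in SPAD and 11388 in SVCD and none of its markers below background. Sox17 was 13.3-fold higher (3.74 ± 0.21, other probe 2.83), Robo4 10.6-fold (3.41 ± 0.20) and Esam 9.41-fold (3.23 ± 0.20). The other way went Sox18, 4.20-fold lower (-2.07 ± 0.26), and Vwf, at -0.92 ± 0.20, both named after their values were seen. The difference of Erg was 3.43 ± 0.22 (other probe 4.41), and the list includes Tek, Tie1, Kdr and Egfl7 described above. The part of endothelial cells in the values of Pgf, Angpt2, Pdgfb, Flt1, Kdr, Tek and Tie1 was not tested. Of these, Pdgfb (-1.20 ± 0.20, other probe -0.06) and Kdr (-0.49 ± 0.20, other probe -1.94) had negative differences, and Tek, Tie1 and Kdr are themselves on the endothelial list. On the lymphatic list, Prox1 and Reln, the first the defining factor of lymphatic endothelium, were not well above background in SPAD or SVCD. Lyve1 was 3.86-fold lower (-1.95 ± 0.21) and Pdpn 2.22-fold higher (1.15 ± 0.20, other probe 1.44). The summed signal of the list was 65048 in SPAD and 32250 in SVCD, nearly all of it from Pdpn.

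The lists lower in SPAD included cells known to secrete Hgf, Vegfc and PDGFs. Of 9 macrophage genes, 7 were measured on both arrays, 1 in SVCD only and 1 had no named probe; 5 were lower in SPAD by 2-fold or more and 0 higher (median -1.32). The summed signal, which Lyz2 led in SPAD, was 111011 in SPAD and 172455 in SVCD. Lyz2, the 1 gene of the list with a positive difference (0.35 ± 0.20), had 98429 ± 9843 in SPAD and 84459 ± 8446 in SVCD. Aif1 was 26.4-fold lower (-4.72 ± 0.22), Csf1r 16.8-fold (-4.07 ± 0.20) with its other probes between -4.03 and -1.64, and Mrc1 6.58-fold (-2.72 ± 0.20). Fcgr1 was measured in SVCD only and was at least 34.6-fold lower. Mesothelial genes were lower too, with 3 of 5 at least 2-fold lower, 0 higher (median -4.55) and summed signals of 1259 in SPAD and 11699 in SVCD. Krt8 was 47.7-fold lower (-5.57 ± 0.30, with a dim 19.5 ± 3.61 in SPAD), Krt18 42.7-fold (-5.41 ± 0.21) and Msln 23.5-fold (-4.55 ± 0.21). Lrrn4, measured in SVCD only, was at least 7.97-fold lower, and Upk3b was not well above background in SPAD either. All 5 proliferation genes were at least 2-fold lower (median -4.94, summed signal 554 in SPAD and 14503 in SVCD), with Ccna2 49.8-fold (-5.64 ± 0.23), Ccnb1 33.7-fold (-5.07 ± 0.21), Cdk1 30.7-fold (-4.94 ± 0.22) and Top2a 28.9-fold (-4.85 ± 0.24) lower. The other Cdk1 probes lay between -2.46 and -1.13, and those of Ccnb1 between -5.25 and -4.20. The part of macrophages, mesothelial cells or dividing cells in the lower values of Hgf, Vegfc, Pdgfa and Pdgfc was not tested.

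Pericyte and smooth muscle genes were divided, with 3 of 10 higher in SPAD by 2-fold or more and 4 lower (median 0.41, or -0.43 with spike-in scaling; summed signal 52084 in SPAD and 245075 in SVCD). Rgs5, a pericyte gene, was 7.19-fold higher (2.85 ± 0.32) but dim in SVCD, at 98.5 ± 10.3 in SPAD and 15.0 ± 2.90 in SVCD. The contractile genes Cnn1, Acta2 and Tagln were 40.7-fold (-5.35 ± 0.21), 13.7-fold (-3.77 ± 0.06) and 12.0-fold (-3.59 ± 0.20) lower. Named after their values were seen, the pericyte gene Cspg4 was 2.66-fold lower (-1.41 ± 0.21) and the contractile gene Myh11 differed by 0.55 ± 0.21. Kcnj8, another pericyte marker, was not well above background in SPAD or SVCD. Of 5 platelet and megakaryocyte genes, the cells for which PDGF is named, Gp1ba and Gp9 were not well above background in SPAD or in SVCD. Itga2b was 7.05-fold higher (2.82 ± 0.30) but dim in SVCD, at 14.6 ± 2.60. Pf4 was 2.83-fold higher, and Ppbp differed by 0.37 ± 0.21. The summed signal of the list was 224567 in SPAD and 86527 in SVCD, nearly all of it from Pf4. The adipocyte label of SPAD was set against 8 mature adipocyte genes. All 8 were well above background in SPAD and in SVCD, 6 of them higher in SPAD by 2-fold or more and 1 lower (median 2.47, summed signal 117536 in SPAD and 56125 in SVCD). Plin1 was 18.0-fold (4.17 ± 0.22), Adipoq 16.2-fold (4.02 ± 0.27), Cidec 12.0-fold on its brighter probe (3.59 ± 0.21, with the other at -0.0041) and Slc2a4 7.82-fold higher (2.97 ± 0.07). In SVCD, Adipoq and Plin1 were dim, at 336 ± 33.8 in SPAD and 22.7 ± 3.50 in SVCD for Adipoq and 479 ± 47.9 in SPAD and 29.0 ± 3.42 in SVCD for Plin1. Lpl, named after its values were seen as the gene of the list that was lower, was 6.80-fold lower (-2.77 ± 0.20, other probe -2.91), at 2806 ± 281 in SPAD and 20821 ± 2082 in SVCD. Cebpa, named in the same way, differed by -0.43 ± 0.20. Of 7 fibroblast and adipose progenitor genes, cells that make Hgf, Vegfc and PDGFs, 6 were measured on both arrays, with 3 higher in SPAD by 2-fold or more and 0 lower (median 0.85, summed signal 19477 in SPAD and 14844 in SVCD), or 1 and 2 with spike-in scaling. Dcn was 3.65-fold (1.87 ± 0.20), Pi16 2.84-fold (1.51 ± 0.27) and Ly6a 2.13-fold higher (1.09 ± 0.20), Col1a1 differed by -0.99 ± 0.20, and Dpp4 was not well above background in SPAD or SVCD. The 2 probes of Cd34 disagreed, at -0.43 ± 0.20 on the brighter and 2.46 on the other. With the mean over probes 4 genes of this list were higher.

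**Figure D4:**
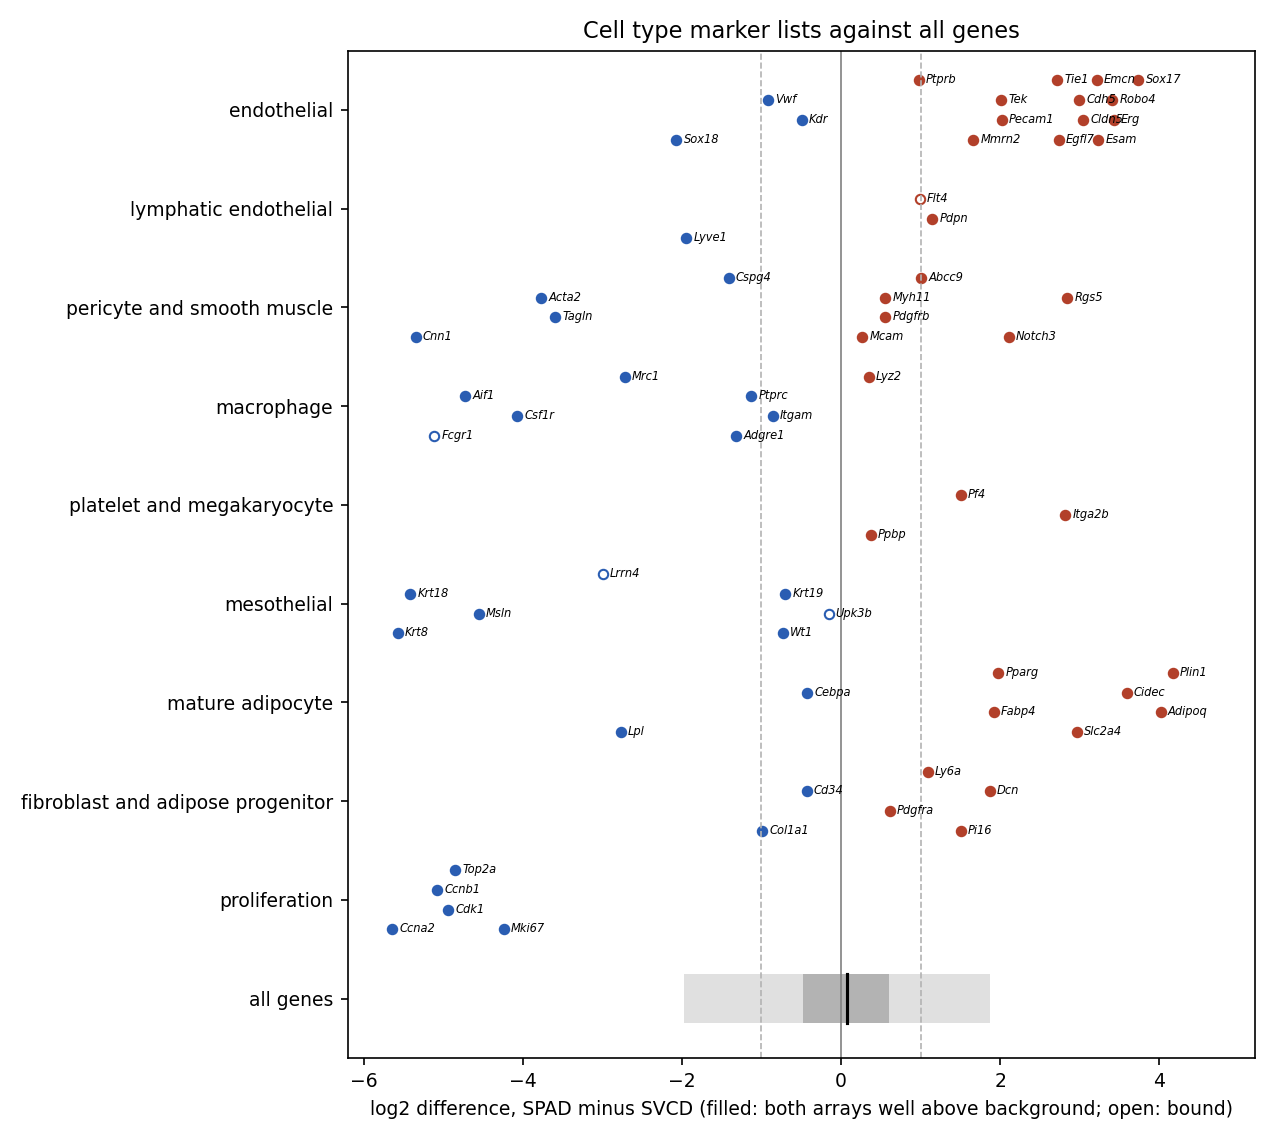
Log2 difference (SPAD minus SVCD) of the genes of 9 cell type marker lists, with filled circles for genes well above background on both arrays, open circles for bounds, red above 0, blue below, and dashed lines at 2-fold. The bar for all 14074 genes spans the 5th to 95th percentile (light) and the 25th to 75th (dark). The endothelial list has 12 of 16 genes to the right of 2-fold, and the 5 proliferation genes lie between -5.64 and -4.24.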

How the data were processed

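RNA of SPAD and SVCD (30 ng each, per the labels) was labelled with Cy3 and hybridised to 1 Agilent array per group. Both arrays carry the same scan time, per the file headers. The deposited intensity values come from Agilent Feature Extraction (version 10.7.3.1 in the submitters' processing notes) and are background-subtracted and linear, as the headers say. A log2 table deposited by the authors was centred per probe over both arrays. Its columns had medians of 0.16 and -0.16, and their difference equalled the log2 difference of the scanner values plus 0.12, within 0.01 for 99.8% of probes, so only differences can be read from it. The sources used here do not say how that scaling was chosen.

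From the files, 1377 of 44397 spots per array (controls) and 73 and 85 outlier spots (SPAD and SVCD) were left out, and repeat spots were averaged. Probes were named through RefSeq accessions without versions (table of assembly GRCm38.p6), which matched 27500 probes (69.8%). A gene is read from its probe with the highest mean signal, other probes of named genes being given where they were above background. Genes were counted past a log2 difference of 1 in either direction if well above background on both arrays. For genes above background on 1 array, a fold is a bound ("at least"), whose dim side is the gene's own value or the lowest signal above background on that array, if that is higher. Each growth factor probe is printed once per array, so the error of its signal is the deposited one of Feature Extraction, with the SD over repeat spots of other probes beside it. The steps were tested on simulated data. Since the files hold spot medians and no spot means, normexp (limma 3.58.1, R 4.3.3, offset 50) used gMedianSignal, the median pixel intensity per the file headers. Python 3.11.15 was used otherwise.

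The growth factors, lists and settings were chosen with earlier results of these data known. Named were all growth factors and receptors and the 4 genes of each other list with the largest absolute difference. Some further genes were named too, in part after their values were seen. With 2 arrays, likeness of expression patterns could not be measured. Alternatives were other scalings (quantile, spike-in with 8 control probes, none), the percentile over probes above background on both arrays, normexp, the authors' table, the mean over a gene's probes, and no filter on dim probes.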

Additional observations from a re-analysis of the deposited data

How the results depend on the processing

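None of the differences of growth factor or receptor genes past 2-fold turned in sign under the 8 alternatives. The counts of growth factors (2 higher, 5 lower) moved only with the mean over probes, to 4 lower, without Pdgfb. The receptor counts ranged from 2 to 4 in each direction. With spike-in scaling the median of the growth factors was -2.04, and 5.19% of all genes were at least 2-fold higher and 38.1% lower. The median of the growth factors was -0.63 with the mean over probes and -0.68 without a filter on dim probes, which adds Angpt1. The dim signals Hgf (-1.98), Tek (0.54) and Pdgfrl (-0.95) were smaller with normexp, and Kdr was -1.21 with the mean of its probes. Of 152 values of single genes under an alternative, 120 stayed within the error of the difference and 32 moved beyond it. Part of this tally was fixed in advance. Spike-in scaling moved every gene by -0.84, more than any of these errors. Leaving out the filter could not change the value of a gene, nor could the mean over probes for a gene with a single probe. The authors' table holds nearly the same differences. The alternatives are therefore fewer separate checks, of size or of sign, than their number. Of 208 counts of the other lists, 177 stayed within 1.5 times. With quantile or no scaling 3 secreted inhibitors were higher instead of 5. With the mean over probes 5 transcription factors were higher instead of 3, and 5 proteases or inhibitors lower instead of 3. With normexp 1 fibroblast gene was higher instead of 3, and without the filter 5 mesothelial genes were lower instead of 3. Spike-in scaling also gave 3 endothelial, 2 mature adipocyte and 5 mesothelial genes lower (1, 1 and 3 with 75th percentile scaling) and 1 platelet gene higher (2 with 75th percentile scaling). Counts that moved by over 1.5 times and are given neither here nor beside their list stayed between 0 and 2. No paired analysis was possible because each group has 1 array. With 1 array per group, signal over background limits what can be read for Angpt1, Hgf, Pdgfd, Tek and Flt4. The same holds for the size of the folds of markers that were dim on 1 array, such as Rgs5, Itga2b and Krt8.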
